A study of Rattus norvegicus with 6 samples.

Results

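Isl1, Tbx1, Six2, Eya1 and Eya2 are transcription factors and cofactors of the second heart field and the pharyngeal region, and their signals were compared in the rat heart primordium before and after heartbeat initiation. The genes were chosen by name, and every probe that the array annotation assigns to them was used, which gave 5 probes of 30367 on the array, 1 for each gene. The samples were heart primordia of Wistar rat embryos (spelled Wister in the labels) on embryonic day 10, with no treatment and no genetic change given. The pre-heartbeat group (n = 3) had a flat central shape and the post-heartbeat group (n = 3) a raised central shape with slightly more somites, so the groups also differed in developmental stage. Each sample was hybridized to 1 array of a 1-color Agilent platform, and the 6 arrays lay on 2 slides. Slide 1 held pre-heartbeat 1, post-heartbeat 1 and post-heartbeat 2, and slide 2 held pre-heartbeat 2, pre-heartbeat 3 and post-heartbeat 3. The samples are biological replicates per the labels, but whether several primordia were pooled for an array is not given in the sources used here. The dissected primordium is a mixture of cell types, so that fewer cells of a type and less RNA per cell cannot be told apart.

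The heart tube is built in successive waves. Cells of the first heart field form the early tube and soon contract, whereas progenitors of the second heart field stay behind in the pharyngeal mesoderm, keep dividing and are later added to the outflow tract, the right ventricle and the atria. Isl1, a LIM homeodomain factor, marks these progenitors and is switched off as they differentiate. Tbx1, a T-box factor of the pharyngeal mesoderm and endoderm, keeps the progenitors proliferating and is required for the outflow tract and the pharyngeal arches. Homeodomain proteins of the sine oculis family, such as Six2, act in a complex with Eya proteins, in which the former bind DNA and Eya, a cofactor that is also a phosphatase, activates transcription. Both are used in the cranial placodes, the pharyngeal arches, the somites, the kidney and the second heart field.

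Each gene was read by a single 60-base probe. The sequences show what was measured, since a signal is that of the transcripts the probe matches. They are given as on the array, 5′ to 3′, in lower case with no part marked.

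Isl1: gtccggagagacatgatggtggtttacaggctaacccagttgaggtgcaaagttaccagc

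Six2: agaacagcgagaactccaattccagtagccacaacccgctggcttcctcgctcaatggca

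Eya1: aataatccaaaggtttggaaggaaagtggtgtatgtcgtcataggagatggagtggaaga

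Eya2: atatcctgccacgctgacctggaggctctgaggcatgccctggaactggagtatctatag

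On the rn4 genome used by the array annotation, the Isl1 probe lies at chr2:48052237-48052296 on the minus strand and the Six2 probe at chr6:9095360-9095419 on the minus strand. The Eya1 probe lies at chr5:4263281-4263340, the Eya2 probe at chr3:156848632-156848691 and the Tbx1 probe at chr11:84410570-84410629, all on the plus strand. Whether a probe lies in coding sequence or in a UTR was not settled here, and the sequence of the Tbx1 probe is not shown. The probes were unlike each other, with between 9 and 17 of 60 positions equal in any pair, and the Eya1 and Eya2 probes shared 13. The array carried 2 spots of each probe and 1 spot of the Six2 probe. The transcript annotated for the Eya1 probe had no match to a current gene symbol, so the name Eya1 is that given by the array.

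The arrays were alike in brightness, with a 75th percentile of the signal between 1142.82 and 1694.14 intensity units and between 39375 and 41327 of 58717 spots well above background. The first principal component of the tested probes held 60.2% of the variance and separated the slides, and the second held 16.6% and separated the groups. As a check of the tissue, all 13 genes of a list of differentiated heart muscle were well above background on all 6 arrays. By the means, 12 rose after heartbeat initiation and 1 fell, where 55.3% of all tested probes were lower. The rise passed a limma adjusted p of 0.05 for 3 genes, where 0.145% of all tested probes passed in either direction. With the slide added to the model it passed for 7 genes, where 1.51% of all tested probes passed. The values below are log2 of the processed signal less that of the 75th percentile of the same array, so that 0 is a signal equal to that percentile. They compare arrays for the same probe and not the levels of different genes. Where the signals of a list are summed below, bright probes weigh more, and a share of the sum is a share of signal and not of transcripts.

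None of the 4 genes that could be tested passed the threshold of an adjusted p of 0.05 between the groups (limma with Benjamini-Hochberg adjustment), where 0.145% of 19299 tested probes (28 probes) did. Of these genes, Eya1 alone was under an unadjusted p of 0.05, and 7% of all tested probes were. Eya1 met the filter of the test only through the pre-heartbeat group, where its signal was higher. When the slide was added to the model as a block (the slide-blocked model below), 0 of the 4 genes and 1.51% of the tested probes passed the adjusted threshold. In that model Eya1 and Eya2 were under an unadjusted p of 0.05, as were 9.63% of the tested probes. The 5 genes are described below by role, first the DNA-binding factors of the second heart field and then Six2 and the Eya proteins.

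**Figure D1:**
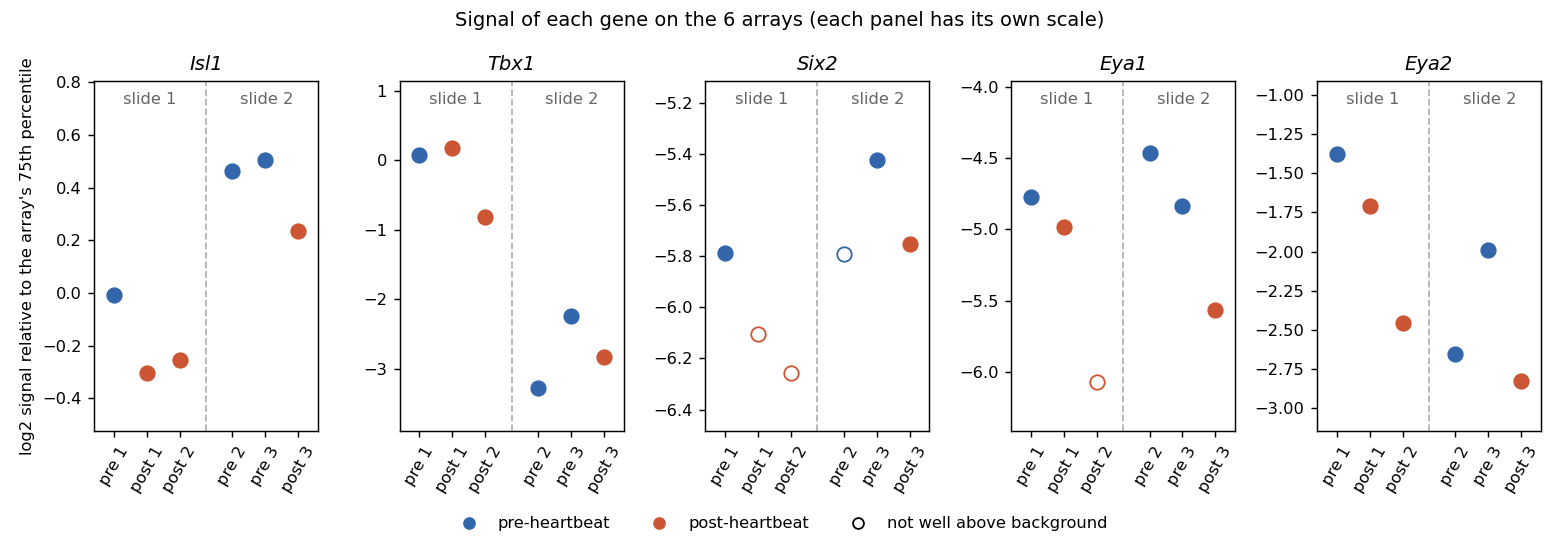
Log2 signal of Isl1, Tbx1, Six2, Eya1 and Eya2 less the 75th percentile (y axis, own scale in each panel) on the 6 arrays (x axis, ordered by slide), 1 point per array. Filled points were well above background and open points were not. Tbx1 and Isl1 separated the slides, for Tbx1 with all slide 1 arrays at -0.82 or higher and all slide 2 arrays at -2.25 or lower, and Eya1 separated the groups.

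The signal of Isl1 was -0.01 on pre-heartbeat 1, 0.46 on pre-heartbeat 2 and 0.50 on pre-heartbeat 3. It was -0.30 on post-heartbeat 1, -0.25 on post-heartbeat 2 and 0.24 on post-heartbeat 3. The groups overlapped, because post-heartbeat 3 was above pre-heartbeat 1, but within each slide every post-heartbeat array was below every pre-heartbeat array. The pre-heartbeat mean was 0.32 ± 0.28 (SD, n = 3) and the post-heartbeat mean -0.11 ± 0.30 (SD, n = 3), with a difference of -0.43 (SE 0.22, limma adjusted p = 0.845). In the slide-blocked model the difference was -0.26 (SE 0.13, 95% interval -0.55 to 0.03, limma adjusted p = 0.609), and it was -0.27 within slide 1 and -0.25 within slide 2. Isl1 also differed between the slides, by 0.50 (SE 0.13) higher on slide 2 with the group in the model (limma adjusted p = 0.0350), and this call was lost when any array other than pre-heartbeat 2 was left out (adjusted p up to 0.204). Its signal was therefore highest on the pre-heartbeat arrays of slide 2 and lowest on the post-heartbeat arrays of slide 1, with a range of 1.75 fold over all 6 arrays.

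Tbx1 varied most among the 5 genes. Its signal was 0.07 on pre-heartbeat 1, -3.28 on pre-heartbeat 2 and -2.25 on pre-heartbeat 3. It was 0.18 on post-heartbeat 1, -0.82 on post-heartbeat 2 and -2.83 on post-heartbeat 3. Each group thus held arrays from both ends of the range, and the arrays fell apart by slide with no overlap, as those of Isl1 also did and as 42.4% of all tested probes did. In intensity units the slide 1 arrays were at 1765, 1425 and 802, and the slide 2 arrays were at 118, 312 and 239. The paired spots of the probe differed by at most 0.26 on the log2 scale on any array, against a range of 3.46 (10.97 fold) over the arrays.

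For Tbx1 the pre-heartbeat mean was -1.82 ± 1.71 (SD, n = 3) and the post-heartbeat mean -1.16 ± 1.53 (SD, n = 3), with a difference of 0.66 (SE 1.01, 95% interval -1.73 to 3.05, limma adjusted p = 0.868). In the slide-blocked model the sign turned, and the difference was -0.23 (SE 0.34, 95% interval -1.02 to 0.56, limma adjusted p = 0.998). Within slide 1 the post-heartbeat mean was 0.39 below the pre-heartbeat array (log2 difference -0.39), and within slide 2 the difference was -0.070. In both slides the post-heartbeat values overlapped the pre-heartbeat values. The direction of Tbx1 between the groups thus depended on whether the slide was in the model.

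The slide difference of Tbx1 was -2.67 (SE 0.34, slide 2 minus slide 1, limma adjusted p = 0.00332). A larger slide difference was seen for 15 of 19299 tested probes (0.0777%), and 16.1% of the tested probes passed the adjusted threshold for the slide. The median size of the slide difference over all tested probes was 0.26. Leaving out each array in turn kept it between -2.91 and -2.43, but without pre-heartbeat 1 or post-heartbeat 3 the adjusted p was 0.0641 and 0.0786 in limma. The slide is a place of hybridization, and what else the samples of a slide shared is not given in the sources used here, so that the hybridization and any difference between the embryos on each slide cannot be told apart. The 5 tested pharyngeal muscle progenitor genes had a median slide difference of -0.77, and the summed level of that list (linear signal relative to the 75th percentile) was 0.890 to 1.14 on slide 1 and 0.553 to 0.721 on slide 2. The sum of surface ectoderm and placode genes was 71.7 to 79.1 on slide 1 and 90.6 to 115.6 on slide 2, but 88.4% to 91.7% of it was the keratin Krt18. Without Krt18 the slides overlapped (7.50 to 9.20 and 7.55 to 9.73), the median slide difference of the 7 tested genes was -0.14, and 1 gene passed, Dlx3, higher on slide 1 (-1.27, limma adjusted p = 0.00348). The part of these lists in the slide difference of Tbx1 was not tested.

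**Figure D2:**
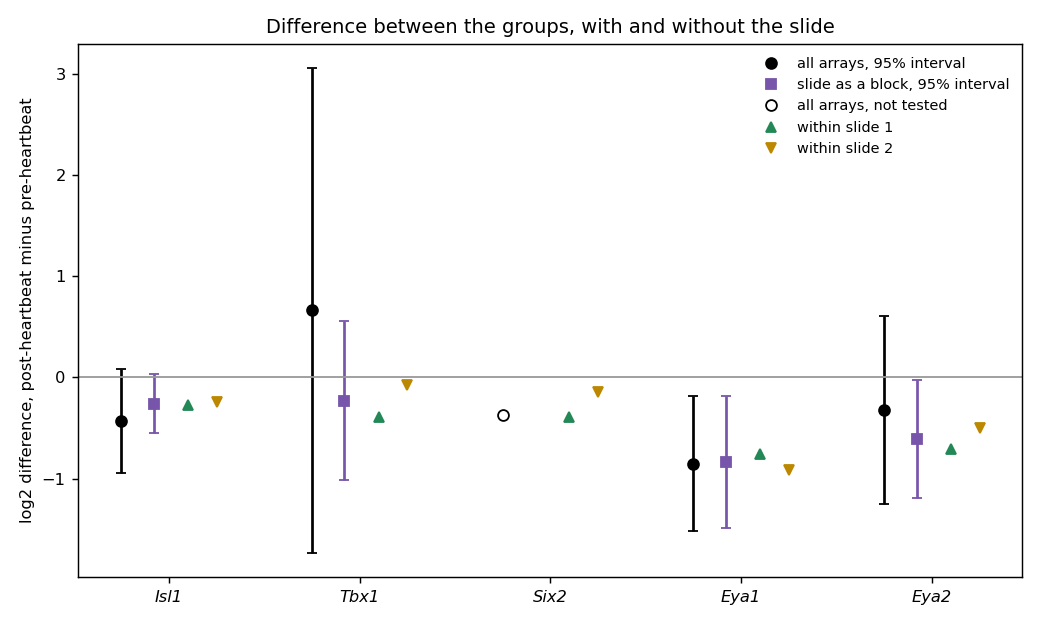
Log2 difference between the groups, post-heartbeat minus pre-heartbeat (y axis), for each gene (x axis). Circles are all arrays and squares the slide-blocked model, both with the 95% interval of limma, and triangles are the differences of means within each slide. The within-slide values lay below 0 for all 5 genes, and Tbx1 was above 0 only without the slide in the model.

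Six2, a homeodomain factor known from the kidney progenitors and from part of the second heart field, was near the lower limit of the array. Its single spot was well above background on 2 of 3 pre-heartbeat arrays and 1 of 3 post-heartbeat arrays, so it did not enter the test. The signal was -5.78 on pre-heartbeat 1, -5.79 on pre-heartbeat 2 and -5.42 on pre-heartbeat 3, and it was -6.10 on post-heartbeat 1, -6.26 on post-heartbeat 2 and -5.75 on post-heartbeat 3. The groups overlapped, and the arrays well above background were pre-heartbeat 1, pre-heartbeat 3 and post-heartbeat 3. The pre-heartbeat mean was -5.67 ± 0.21 (SD, n = 3) and the post-heartbeat mean -6.04 ± 0.26 (SD, n = 3), with a difference of -0.37 with p = 0.3 in a two-sided exact permutation test, which cannot go below 0.1 with 3 arrays against 3. After another background correction (normexp, described for the alternatives) the difference was -0.11.

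Eya1 was the one gene whose groups did not overlap, which was the case for 11.6% of all tested probes. Its signal was -4.77 on pre-heartbeat 1, -4.46 on pre-heartbeat 2 and -4.83 on pre-heartbeat 3, against -4.98 on post-heartbeat 1, -6.07 on post-heartbeat 2 and -5.56 on post-heartbeat 3. The post-heartbeat arrays were spread more widely, and post-heartbeat 2 was not well above background. Eya1 therefore met the filter of the test only through the pre-heartbeat group. That group had the higher signal, so the lower post-heartbeat signal and its p-values are not independent of the filter. The pre-heartbeat mean was -4.69 ± 0.20 (SD, n = 3) and the post-heartbeat mean -5.54 ± 0.54 (SD, n = 3), with a difference of -0.85 (SE 0.28), or 1.80 fold lower after. The limma p was 0.0192 before and 0.487 after adjustment, and the exact permutation p was 0.1, the smallest possible.

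The slide made little difference to Eya1. The difference between the groups was -0.84 (SE 0.28, limma adjusted p = 0.313) in the slide-blocked model, -0.76 within slide 1 and -0.92 within slide 2, and the slide difference was 0.04 (SE 0.28). The signal was low, however, at 21.0 to 61.7 intensity units, and the paired spots differed by up to 0.54 on the log2 scale. With normexp the difference was -0.37, and Eya1 was not tested where a probe had to be well above background on all 6 arrays.

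Eya2, the second Eya cofactor on the list, was well above background on all 6 arrays. Its signal was -1.37 on pre-heartbeat 1, -2.66 on pre-heartbeat 2 and -1.99 on pre-heartbeat 3, and it was -1.71 on post-heartbeat 1, -2.46 on post-heartbeat 2 and -2.83 on post-heartbeat 3. Over all arrays the groups overlapped, and within each slide every post-heartbeat array was lower than every pre-heartbeat array. The pre-heartbeat mean was -2.01 ± 0.64 (SD, n = 3) and the post-heartbeat mean -2.33 ± 0.57 (SD, n = 3), with a difference of -0.32 (SE 0.39, limma adjusted p = 0.865). In the slide-blocked model it was -0.61 (SE 0.25, 95% interval -1.19 to -0.02, limma adjusted p = 0.485), with -0.71 within slide 1 and -0.50 within slide 2. Eya2 was lower on slide 2 by a log2 difference of -0.85 (SE 0.25, limma adjusted p = 0.0586), the opposite direction to Isl1.

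Side by side, the slide difference was negative for Tbx1 and Eya2, positive for Isl1 and near 0 for Eya1. All 5 genes had a lower post-heartbeat mean within both slides, which was so for 25.4% of all tested probes. For Isl1, Eya1 and Eya2 the arrays of the groups did not overlap within either slide, with the post-heartbeat arrays lower, as for 13.4% of the tested probes. The median difference over all tested probes was -0.03 without the slide and -0.02 in the slide-blocked model. No gene of the 5 passed the adjusted test in any setting in which it was tested.

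Other genes of the second heart field were read from a list of 23 regulators and signals that includes Isl1 and Tbx1, of which 21 were tested. None passed the adjusted test without the slide in the model, and the median difference was 0.23, against -0.03 over all tested probes. By the means, 15 were higher and 6 lower after heartbeat initiation, where 55.3% of all tested probes were lower. In the slide-blocked model the median was 0.06, 11 were higher and 10 lower by the means, and 1 gene passed, Wnt11. Wnt11, a non-canonical Wnt ligand of the outflow tract and the forming heart tube, rose by 1.17 on the log2 scale in that model (SE 0.21, limma adjusted p = 0.0437), and without the slide the difference was 1.20 (adjusted p = 0.115). Its call was lost without pre-heartbeat 1, post-heartbeat 1 or post-heartbeat 3 (adjusted p = 0.436, 0.0919 and 0.379).

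Foxc1, a forkhead factor that acts upstream of Tbx1 in the pharyngeal region, had the most negative difference of the list, at -1.11 (limma adjusted p = 0.865) and at -1.62 in the slide-blocked model (adjusted p = 0.0728). Its close relative Foxc2 was at 0.28 and -0.23 under the same models, so its sign turned with the slide as that of Tbx1 did.

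More genes of this list passed between the slides than between the groups, and the same held over all tested probes. Between the groups 0.145% of all tested probes passed without the slide in the model and 1.51% with it. By the slide contrast 8 of 21 genes were higher on slide 1 and 2 were higher on slide 2, where 16.1% of all tested probes passed in either direction. The most negative slide differences after Tbx1 were those of Aldh1a2, the enzyme that makes retinoic acid in early mesoderm, at -1.82 (limma adjusted p = 0.00623), and of the Foxc genes, each at -1.53 (adjusted p = 0.0232 and 0.0235). Hoxb1, a Hox gene responsive to retinoic acid in the posterior second heart field, was at -1.19 (adjusted p = 0.00569). Isl1 and Mef2c, a myocyte enhancer factor that Isl1 is known to activate, were the 2 genes higher on slide 2, by 0.50 and 0.53.

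**Figure D3:**
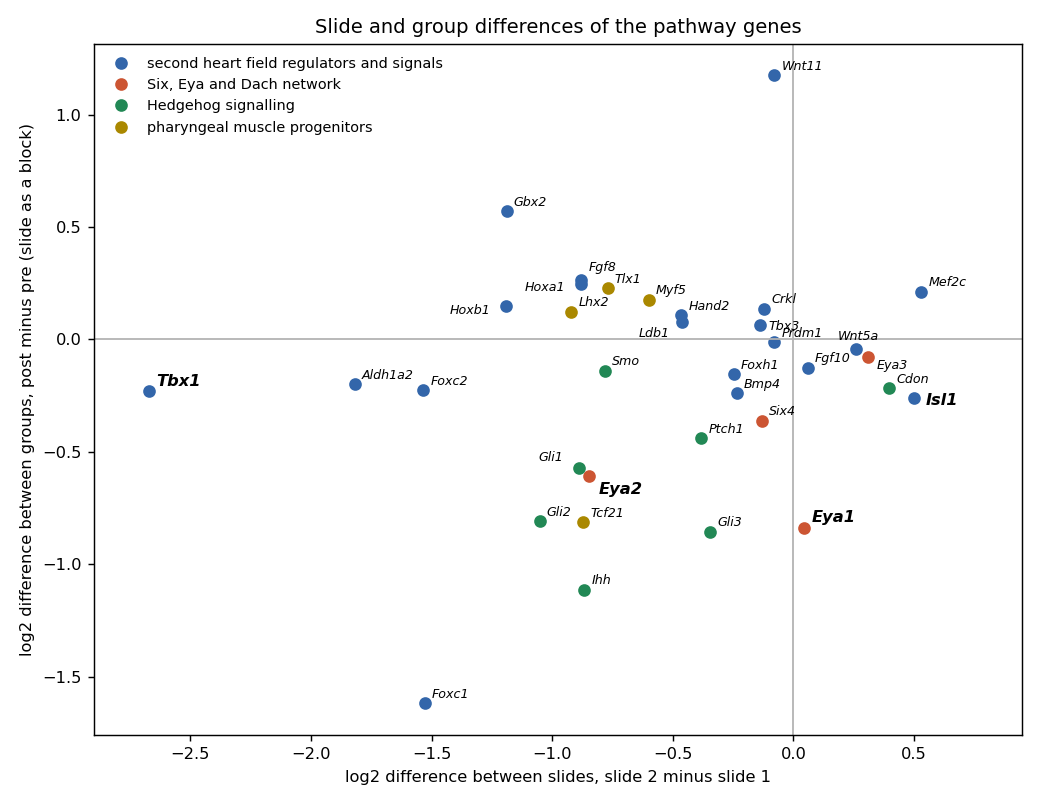
Log2 difference between the groups in the slide-blocked model (y axis, post minus pre) against the log2 difference between the slides (x axis, slide 2 minus slide 1) for the tested genes of the 4 lists that are reported here, 1 point per gene, with a gene of several lists shown in the first. Tbx1 lay farthest to the left, Isl1 to the right, and Eya1 and Eya2 lay below 0 on the y axis with the other genes of the sine oculis, Eya and Dach list.

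The list of sine oculis, Eya and Dach genes held 10 genes, of which 8 were named on the array and 5 were tested. None passed the adjusted test with or without the slide in the model. All 5 had a negative difference by the means, with a median of -0.32 without the slide and -0.61 in the slide-blocked model, and 55.3% of all tested probes were lower by the means. Six4 was at -0.32 and Eya3 at -0.18. Eya4 was not well above background on any array, and Six2 and Dach2 were so on 3 and 2 of the 6 arrays.

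Hedgehog signals from the pharyngeal endoderm act on the second heart field, upstream of Tbx1, and 7 of the 9 genes of this pathway on the array were tested. By the means 6 of the 7 were lower after heartbeat initiation, with a median of -0.35, where 55.3% of all tested probes were lower. In the slide-blocked model all 7 were lower, with a median of -0.57. The share of all tested probes that were lower in that model was not counted, and 1.51% of them passed the adjusted threshold in either direction. Ihh, a Hedgehog ligand made by the early endoderm, fell by 1.11 on the log2 scale in the slide-blocked model (limma adjusted p = 0.0288), while without the slide the difference was -0.82 (adjusted p = 0.731). Its call was lost without pre-heartbeat 1 or post-heartbeat 3 (adjusted p = 0.254 and 0.361). The transcription factor Gli3 was at -0.74 (limma adjusted p = 0.517, unadjusted p under the threshold), and Smo, the transducer of the pathway, had the most positive value, at 0.12 without the slide and -0.14 in the slide-blocked model. Shh, a Hedgehog ligand of the notochord and endoderm, was not well above background on any array.

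Among the 6 genes of pharyngeal muscle progenitors, 5 were tested and none passed the adjusted test in either model. The median difference was 0.43 without the slide and 0.18 in the slide-blocked model. Tcf21, a basic helix-loop-helix factor of the branchiomeric muscles and the epicardium, was the only one with a negative difference, at -0.52 (limma adjusted p = 0.865) and at -0.81 in the slide-blocked model (adjusted p = 0.0640). On slide 1, 3 of the 5 genes were higher by the slide contrast, where 16.1% of all tested probes passed in either direction. Msc was not well above background on any array.

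The summed linear signals of marker lists also differed between the groups, in both directions. Of the lists without overlap between the groups, those of neural ectoderm, neural crest, pharyngeal and definitive endoderm and endothelial genes were lower after heartbeat initiation, and those of differentiated heart muscle, cardiac regulators and erythroid genes were higher. The neural ectoderm sum was 6.81 to 7.73 before and 2.65 to 3.21 after, and 66.7% to 87.5% of it was Otx2, a homeodomain factor of the anterior neural plate and anterior endoderm. Without Otx2 the groups overlapped (0.852 to 1.60 before and 0.595 to 1.07 after). Of the 5 tested genes of the list, 2 were higher by the means and 3 lower, with Otx2 among the lower ones. Otx2 fell by 1.56 on the log2 scale (limma adjusted p = 0.0201), with an adjusted p of 0.0574 to 0.207 when any single array was left out, and it was the 1 gene of the list that passed. In the slide-blocked model Hesx1, a homeodomain factor of the anterior neural plate, passed as well (-1.65, limma adjusted p = 0.0181). The Hesx1 call was not followed with each array left out. The genes Six3, Zic1 and Lhx5 of that list were not well above background on any array.

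The neural crest sum was 0.304 to 0.418 before and 0.168 to 0.221 after. Of its 3 tested genes 0 passed, and Snai2, a zinc finger factor, was lower in the slide-blocked model at -1.21 (limma adjusted p = 0.0227), while Foxd3 and Sox9 were not well above background on any array. The Snai2 call was not followed with each array left out. In that model 5 of all tested probes passed without pre-heartbeat 1 and 1 passed without post-heartbeat 3. For pharyngeal and definitive endoderm the sum was 6.56 to 7.10 before and 5.31 to 5.81 after. There 0 of 10 tested genes passed, and in the slide-blocked model Cer1, a secreted antagonist of the anterior endoderm, was lower at -1.41 (adjusted p = 0.0212, lost without pre-heartbeat 1, post-heartbeat 1 or post-heartbeat 3 at 0.300, 0.0531 and 0.270). The endothelial sum was 16.2 to 17.4 before and 11.38 to 13.06 after, with 76.5% to 84.8% of it from the receptor Kdr, and without Kdr the groups overlapped.

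The sum of the heart muscle list was 401 to 677 before and 753 to 895 after, and that of cardiac regulators 20.7 to 22.8 before and 25.1 to 30.0 after. The erythroid sum was 0.645 to 1.48 before and 1.68 to 1.92 after, with 73.6% to 92.8% of it from the globin gene Hbb. The groups overlapped for cardiac regulators without Mef2c, its brightest gene, and for erythroid genes without Hbb. No gene passed in either model among the tested genes of surface ectoderm and placodes (7 genes), cardiac regulators (12), paraxial and somitic mesoderm (4), intermediate mesoderm (3), endothelial (8) and erythroid cells (4). The part of these cell types in the differences of Eya1 and Eya2 was not tested.

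**Figure D4:**
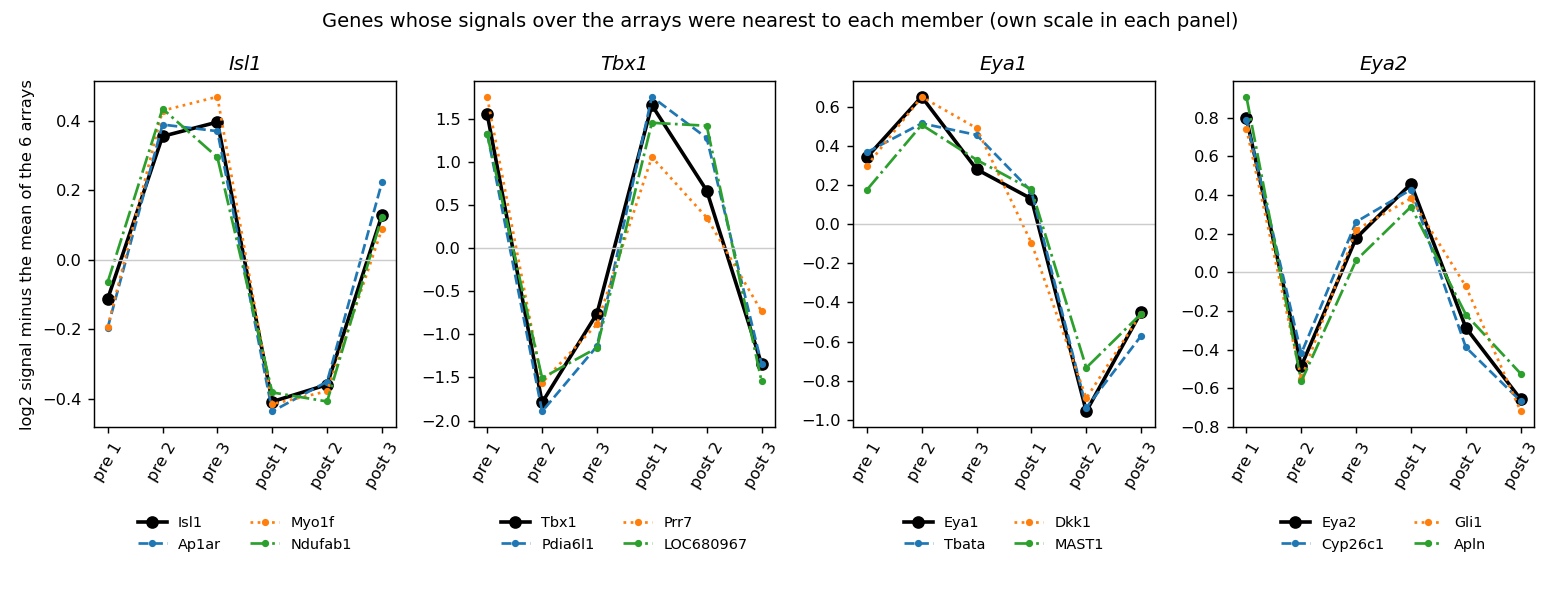
Log2 signal of the 4 tested genes (black) and of the 3 genes nearest to each over the 6 arrays (colors), each less its own mean (y axis), by array (x axis). The nearest genes lay at distances of 0.0554 for Isl1, 0.313 for Tbx1, 0.105 for Eya1 and 0.0614 for Eya2 on the log2 scale.

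For each tested gene, the genes with the most similar signal over the 6 arrays were found by the root mean square distance of the log2 values, each less its mean, among 12704 genes. For Isl1 these were Ap1ar (0.0554), Myo1f (0.0569) and Ndufab1 (0.0603), with a median distance of 0.341 over all genes. For Eya2 they were Cyp26c1 (0.0614), a retinoic acid degrading enzyme, the Hedgehog effector Gli1 (0.104) and Apln (0.106), a secreted peptide, with a median of 0.577. Gli1 was among the Hedgehog genes of the list above, with a slide difference of -0.89 beside the -0.85 of Eya2. The nearest genes to Eya1 were Tbata (0.105), Dkk1 (0.130) and MAST1 (0.131), with a median of 0.558, and those to Tbx1 were Pdia6l1 (0.313), Prr7 (0.397) and LOC680967 (0.397), with a median of 1.42. These are descriptions over 6 arrays of 2 slides, and the distance reads the slide difference and the group difference together.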

How the data were processed

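RNA of 3 pre-heartbeat and 3 post-heartbeat samples of rat heart primordium was labeled with cyanine 3 and hybridized to 1-color arrays, 1 per sample. For each spot the authors deposited a processed signal, an intensity from which Agilent Feature Extraction 10.7.3.1 had subtracted the background. They also deposited linear ratios, made by 75th percentile normalization and a baseline per probe. The other deposited columns used were flags of each spot, such as well above background.

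Control and outlier spots were left out, log2 was taken, each array was centered on its 75th percentile, and spots of a probe were averaged. A probe was tested if at least 1 group had it well above background (on at least 50% of its spots) on all 3 arrays, which left 19299 of 30367 probes. Groups were compared with limma 3.58.1 in R 4.3.3, with Benjamini-Hochberg adjustment over all tested probes and a threshold of 0.05, and with a two-sided exact permutation test (10 possible splits). Where a listed gene had several probes, the brightest tested probe was used, or the brightest of all if none was tested. The methods of the study compared groups by Tukey's test, and with 2 groups this equals the pooled comparison of means. At an unadjusted p under 0.05 the methods' test called 1326 probes, of which 589 also changed by 1.5 fold or more, and 0 after adjustment. None of the 5 genes was among them. The slide of each array was taken from the scanner output. The number of arrays limits the precision, p-values measure only the spread between these samples, and 0 spots were saturated.

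The genes, lists and tests were chosen with earlier results of these data known. Named genes were the 5 genes, list members past the adjusted threshold with or without the slide as a block, or past 1.5 fold with an unadjusted limma p under 0.05, the extremes of each list, and the 3 nearest genes to each tested gene. From the marker lists (those above, cardiac regulators, paraxial, intermediate, endothelial and erythroid genes) only those that bear on a result are named. Some genes of the lists are counted but not reported here. The limma comparison without the slide was tested on simulated data that held no slide difference. The slide-blocked model and the slide contrast were not tested in this way. Alternatives were the slide or the replicate number as a block, normexp with an offset of 50, quantile normalization, another percentile, other filters, the deposited ratios, the test of the methods, an intensity trend and leaving out each array.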

Additional observations from a re-analysis of the deposited data

How the results depend on the processing

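None of the 5 genes passed the adjusted threshold in a setting in which it was tested, which for Six2 was only the one with no filter. Isl1 and Eya2 stayed below 0 in all settings, and Six2 and Eya1 in all but the filter on all 6 arrays, which gave no value for them. The difference of Tbx1, 0.66, was -0.23 with the slide as a block, -0.27 with normexp added to it, -0.26 with quantile normalization added and -0.23 with the ratios of the authors added. Leaving out each array moved it between -0.069 and 1.60 without and between -0.47 and 0.0061 with the slide as a block. Leaving out each array moved Isl1 between -0.60 and -0.33, Eya1 between -1.13 and -0.58 and Eya2 between -0.65 and -0.0080, the last being nearest to 0. Six2, at -0.37, was at -0.11 with normexp and -0.068 with normexp and the slide as a block. The slide difference of Eya1 lay between -0.18 and 0.29 with each array left out. The cause of these shifts was not tested.

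The 28 probes called became 292 with the slide as a block, 49 with normexp, 14 with quantile normalization, 1 with no filter, 13 with the ratios of the authors, 0 with the methods' test and 45 with an intensity trend. Added to the slide as a block, normexp gave 358, quantile normalization 160 and the ratios 338. Leaving out each array gave 0 to 2 without and 1 to 419 with the slide as a block. Of the listed pathway genes 0 were called, against 2 with the slide as a block, 5 with normexp added, 1 with quantile normalization added and 4 with the ratios added, and 0 to 5 with the slide as a block and each array left out. Combinations with the slide were chosen after seeing the data.

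With the replicate number as a block 166 probes, 1 pathway gene and 0 of the 5 genes were called, with adjusted p from 0.283 for Eya1 to 0.745 for Tbx1. Same-numbered arrays deviated from their group means with correlations of 0.648, -0.277 and 0.494. The arrays numbered 1 and 3 shared a slide and those numbered 2 did not. Pairing by number and the slide therefore overlapped only in part. Arrays of unlike number on the same slide had correlations of 0.496 (pre-heartbeat 1 and post-heartbeat 2) and 0.5 (pre-heartbeat 2 and post-heartbeat 3). The same-numbered pair on different slides was at -0.277. The part of each was not tested. Pairs of arrays on the same slide had correlations of 0.494 to 0.648 and pairs on different slides -0.728 to -0.277. Signals near background limit Six2 and Eya1, and 3 arrays a group limit all of the values.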
